A study of Mus musculus with 27 samples.

Results

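Matrix metalloproteinases and their inhibitors were examined in cancer-associated fibroblasts (CAFs) of MC38 liver metastases through 10 genes: Mmp2, Mmp3, Mmp9, Mmp11, Mmp13, Mmp14 and Adamts1 as proteases, and Timp1, Timp2 and Timp3 as inhibitors. They were taken by name, and all 10 were found among the 18855 targets listed for CAF segments. C57BL/6 mice, 2 months old, had received MC38 murine colorectal cancer cells carrying nontargeting shRNA (control) or CMTM6 shRNA (CMTM6 knockdown) by portal vein injection, and the livers were collected 11 days later. On formalin-fixed sections, a GeoMx Digital Spatial Profiler collected the probes of the mouse whole transcriptome panel. The probes came from the desmin-stained area of each region of interest (ROI, the AOI of the study). This gave 14 ROIs in control metastases and 13 in CMTM6-knockdown metastases. The shRNA was in the injected cancer cells and not in the CAFs, and hosts of both groups were of the same strain and age. The tumors came from 3 mice per group, but which ROI came from which mouse is not in the labels. Some ROIs therefore share an animal, and every p-value over ROIs given here is too small.

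Matrix metalloproteinases are zinc enzymes that cut collagens and other proteins of the extracellular matrix, and most are secreted as inactive precursors. Tissue inhibitors of metalloproteinases (TIMPs) block the active enzymes by binding at the catalytic site. The system also has a coupled branch, in which the membrane-bound protease MMP14 binds TIMP2 and the complex recruits the MMP2 precursor for activation. In the liver, activated stellate cells and fibroblasts are a known source of MMP2, MMP14 and TIMP1.

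The 27 ROIs held 76346 to 3269149 reads, as recovered from the steps of the deposited values. ROI 26 of the knockdown group was the shallowest, and 1 read there was worth 14.1 deposited units, so that targets with few reads carry little information in it. The fibroblast and stellate cell markers were present, with 10 of 11 above background, and desmin is no finding because it chose the area. Of the hepatocyte markers, 3 of 9 measured were called higher in the knockdown ROIs (limma, described below), beside 0.111% of all targets. Their median log2 fold change over the list was 0.99, and 4 of the 9, the called Cyp2e1 included, were at background. The summed hepatocyte level (log2 over the ROI median) ranged from 2.49 to 4.20 in control and from 2.34 to 5.54 in knockdown ROIs. The summed macrophage level lay between 4.92 and 6.87 in the controls and between 5.67 and 7.18 in the knockdown ROIs. Of 9 macrophage markers, 8 had a log2 fold change above 0, and none passed the test. Of all targets, 37.3% were above 0, and of those above background 27.7%. No marker was listed at 0, because the lowest value of a target was 1 read. The part of these other cells in the member values was not tested. Fewer cells of a type in a segment and less RNA per cell cannot be told apart in such data.

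Levels are given as log2(value + 1) minus the median of all targets in the same ROI, so that 0 is the median target. Because probes differ in efficiency, levels of different genes were not ranked against each other. Each gene was set instead against background, taken in each ROI as the 95th percentile of 1083 targets of 10 families foreign to this tissue, such as odorant, pheromone and taste receptors. On average over the ROIs, 9 of the 10 genes lay above that threshold, as did 10032 of the 18855 targets. The exception was Mmp13.

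**Figure D1:**
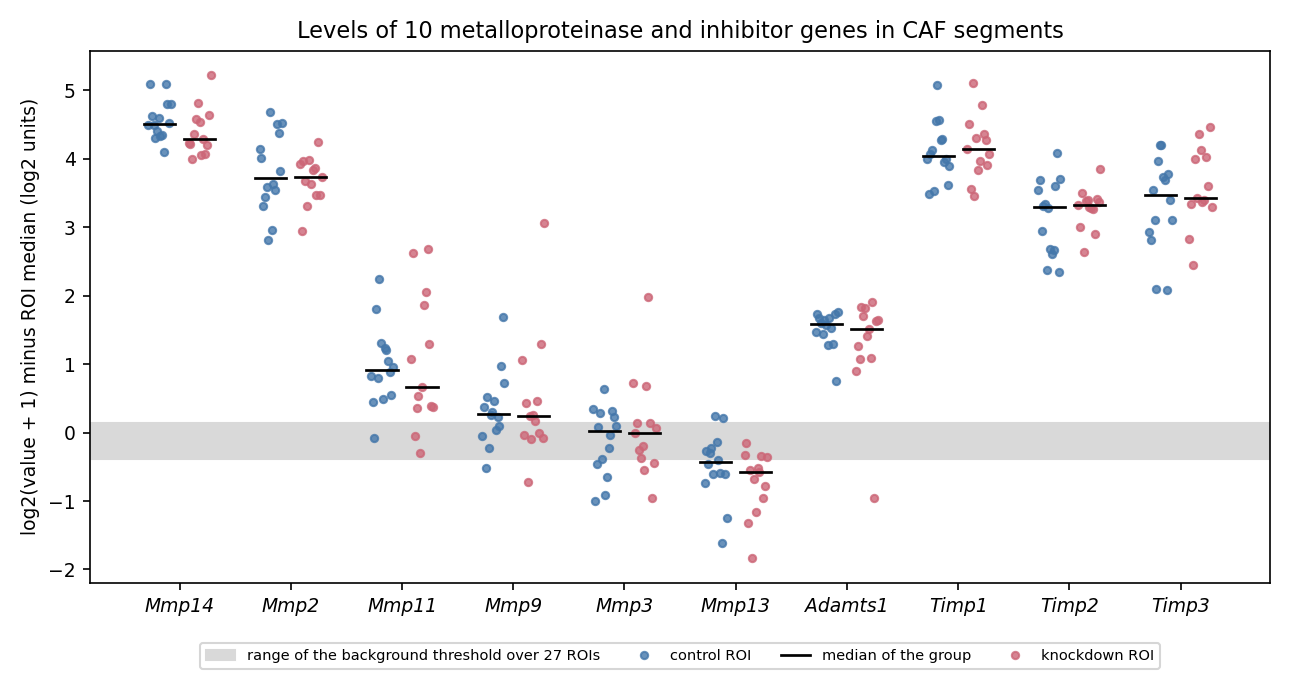
Level of each of the 10 genes in each ROI, as log2(value + 1) minus the ROI median (y axis, log2 units), with 14 control ROIs in blue and 13 CMTM6-knockdown ROIs in red. Black lines are group medians and the grey band is the range of the background threshold, -0.38 to 0.15. Mmp14, Mmp2 and the 3 Timp genes sit far above the band in every ROI, Mmp3 scatters around it, and most Mmp13 points lie in or below it.

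Mmp14 and Mmp2, the membrane-type protease and the gelatinase that it activates, were above the threshold in 27 of 27 ROIs, by a mean of 4.70 and 3.96 log2 units. Mmp14 in control ROIs had a lowest level of 4.09, a median of 4.51 and a highest of 5.10. In knockdown ROIs the same values were 4.00, 4.29 and 5.22. The groups overlapped over nearly their whole range, with 3 knockdown ROIs below every control ROI and 1, ROI 28, above every one. Mmp2 ran from 2.82 through a median of 3.72 to 4.68 in control ROIs. In knockdown ROIs it ran from 2.95 through 3.74 to 4.24. The medians of Mmp2 thus nearly coincided, while 4 control ROIs lay above and 1 below all knockdown ROIs.

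Mmp11, also called stromelysin-3, is a protease known from stromal cells next to carcinomas, and it was above the threshold in 26 of 27 ROIs. Its level was -0.08 at the lowest, 0.92 at the median and 2.25 at the highest in control ROIs. In knockdown ROIs these values were -0.30, 0.67 and 2.68. A few knockdown ROIs stood high for Mmp11, ROI 25 at 2.68 and ROI 17 at 2.63, while the lower part of the group lay among or below the controls. Mmp9, the gelatinase that neutrophils and macrophages are known to release, exceeded the threshold in 23 ROIs. It ranged from -0.52 through a median of 0.28 to 1.69 in control ROIs. It ranged from -0.73 through 0.24 to 3.06 in knockdown ROIs. The top Mmp9 value belonged to ROI 28 with 193 reads, far above the second knockdown ROI at 1.29, which was the shallow ROI 26 with 5 reads.

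Mmp3 (stromelysin-1) and Mmp13 (collagenase-3) were close to background. Mmp3 exceeded the threshold in 16 ROIs, by a mean of 0.18 log2 units over all ROIs. Its levels were -0.996, 0.03 and 0.64 (lowest, median and highest) in control ROIs and -0.95, 0.00 and 1.98 in knockdown ROIs. The groups overlapped except for 3 knockdown ROIs above and 1 control ROI below all others, and ROI 24 alone gave the 1.98, with 82 reads. Mmp13 exceeded the threshold in 5 of 27 ROIs, with a mean distance of -0.40 log2 units from it. It ran from -1.62 through -0.43 to 0.24 in control ROIs and from -1.84 through -0.58 to -0.16 in knockdown ROIs. With signals of this size, differences in Mmp13 between ROIs were not separable from background at this depth.

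Adamts1, a secreted protease with thrombospondin motifs that cuts the proteoglycans versican and aggrecan, was above the threshold in 26 ROIs and had an SD of 0.27 log2 units over the control ROIs, or 0.16 without ROI 14, which is also the 0.16 that counting gives. Its control levels were 0.75 (ROI 14), 1.59 and 1.76. Its knockdown levels were -0.95, 1.51 and 1.91. The -0.95 was ROI 26, where Adamts1, like Mmp3 and Mmp13, had 1 read, and the next lowest knockdown ROI was at 0.91. Without ROI 26, no knockdown ROI lay below all the controls, but with control ROI 14 left out as well, 4 did.

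The 3 inhibitors were above the threshold in 27 of 27 ROIs. Timp1, an inhibitor of most secreted metalloproteinases, had levels of 3.49, 4.03 and 5.08 (lowest, median and highest) in control ROIs and of 3.45, 4.15 and 5.11 in knockdown ROIs. Timp2, which also takes part in MMP2 activation, had levels of 2.34, 3.29 and 4.09 in control ROIs and of 2.64, 3.32 and 3.85 in knockdown ROIs. Timp3, which binds to the matrix and also inhibits ADAM and ADAMTS enzymes, had levels of 2.08, 3.47 and 4.21 in control ROIs and of 2.44, 3.42 and 4.46 in knockdown ROIs. For each inhibitor the groups overlapped widely, with at most 3 ROIs of 1 group beyond the other group at either end, the 3 being control ROIs with low Timp2.

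The spread between ROIs was larger than counting error for Mmp2, Mmp14 and the 3 inhibitors. The SD of Mmp2 over control ROIs was 0.59 log2 units, where counting of reads alone gives 0.07. In knockdown ROIs without ROI 26, the SD of Mmp2 was 0.31 beside 0.09 from counting. Timp2 had SDs of 0.55 in control and 0.31 in knockdown ROIs without ROI 26, beside 0.09 and 0.10. Mmp11 went the other way, with 0.58 in control and 1.03 in knockdown ROIs, beside 0.21 and 0.24 from counting. The difference between groups in spread was not tested. The SD of Mmp13 in knockdown ROIs, 0.49, was close to the 0.43 from counting, so its scatter there carried little beyond counting error.

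**Figure D2:**
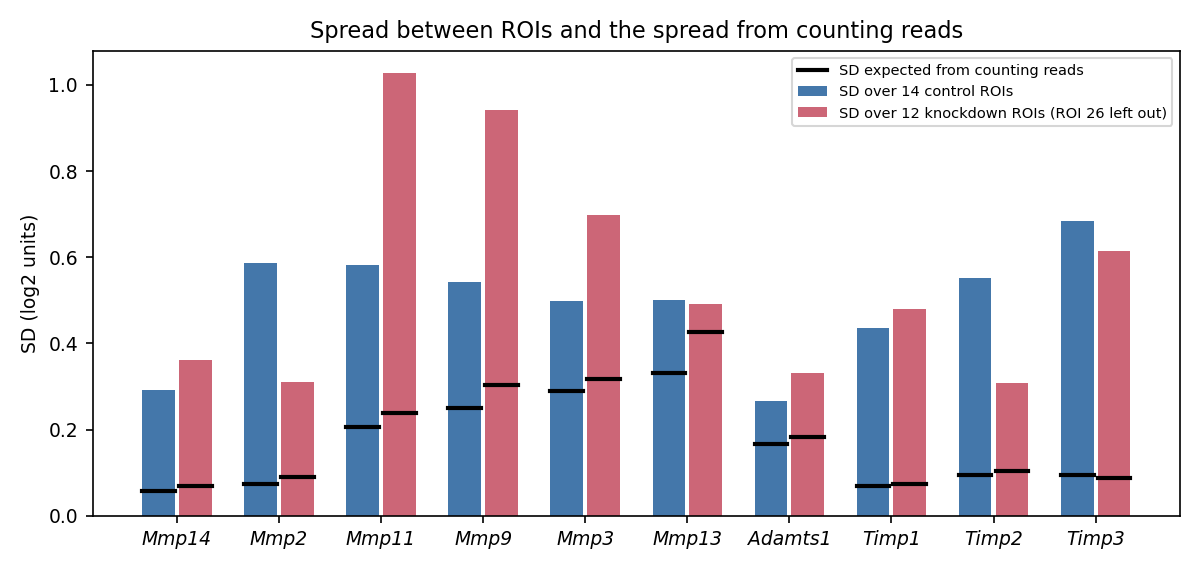
SD of each gene's level over ROIs (bars, log2 units) in 14 control ROIs (blue) and 12 CMTM6-knockdown ROIs (red, shallow ROI 26 left out), with the SD expected from counting reads as black lines. Mmp2 and Timp2 have the taller control bars, Mmp11 and Mmp9 the taller knockdown bars, and the Mmp13 knockdown bar stands just above its counting line. Without ROI 28 as well, the Mmp9 knockdown SD is 0.44, beside 0.54 over all control ROIs and 0.39 over control ROIs without ROI 14.

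Sequence upstream of the start sites was available for 8 of the 10 genes from RefSeq (GRCm38.p6), with none for Mmp2 and Mmp9. Mmp3 and Mmp13 are shown because classical descriptions of inducible metalloproteinase promoters rest on the AP-1 letters TGANTCA close to the start, and Mmp14 and Timp2 because their levels had a positive r in both groups. Each stretch is the 100 bases that end just before the start site. Capitals mark TGANTCA in Mmp3 (chr9:7445722-7445821, + strand) and Mmp13 (chr9:7272414-7272513, + strand), and GGGCGG, the core of the GC box, in Mmp14 (chr14:54431498-54431597, + strand) and Timp2 (chr11:118355412-118355511, - strand).
Mmp3: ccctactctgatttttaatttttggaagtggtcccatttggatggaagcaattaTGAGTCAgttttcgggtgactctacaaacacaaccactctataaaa
Mmp13: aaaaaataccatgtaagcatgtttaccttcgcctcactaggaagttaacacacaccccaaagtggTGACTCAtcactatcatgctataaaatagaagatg
Mmp14: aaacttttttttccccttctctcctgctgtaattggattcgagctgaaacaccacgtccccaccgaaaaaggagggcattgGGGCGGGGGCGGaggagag
Timp2: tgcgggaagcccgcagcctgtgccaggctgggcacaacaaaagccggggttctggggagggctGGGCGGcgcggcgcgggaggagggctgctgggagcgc

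The letters were searched on both strands in the 250 bases before each start. TGANTCA, which reads the same on both strands but for its middle base, was found once in Mmp3 and once in Mmp13 and in no other of the 8 windows, and 6.75% of all 32851 windows hold it. GGGCGG was found in Mmp11, Mmp14, Adamts1, Timp1, Timp2 and Timp3, with 2 adjoining copies in Mmp14, and in 32.7% of all windows. TATAAA was found in Mmp3, Mmp13 and Adamts1, and in 12.4% of all windows. The searched letters do not overlap each other in the stretches shown. The windows of Mmp3 and Mmp13 had a GC content of 37.6% and 40.4%, and those of the other 6 genes 54.4% to 68.0%. A match describes these letters only.

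Whether CMTM6 knockdown in the cancer cells went with a change of these genes in the neighboring CAFs was asked by comparing the 13 knockdown with the 14 control ROIs. No member differed between groups relative to the median gene. limma, fitted on all 18855 targets with Benjamini-Hochberg adjustment at 0.05, called 0 of the 10 higher and 0 lower, beside 0.111% of all targets called higher and 0.0053% called lower. At an unadjusted p under 0.05 the count was also 0 of 10, beside 9.89% of all targets, and by edgeR on the recovered reads it was 1, Mmp3 (log2 fold change 0.50, p = 0.026, adjusted p = 0.413). After adjustment edgeR called 0 of 10, beside 0.594% of all targets higher and 0.0849% lower, and DESeq2 0 of 10, beside 0.767% and 0.124% of the 14468 targets to which it gave an adjusted p. The median log2 fold change of the 10 was 0.07, beside -0.05 over all targets and -0.09 over targets above background. A p that misses the threshold does not show that the groups were equal, and the p-values are too small for ROIs that share animals.

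Among the proteases, log2 fold changes (knockdown minus control) were negative for Mmp13, Adamts1, Mmp14 and Mmp2 and positive for Mmp3, Mmp9 and Mmp11. Mmp14 had -0.17 (SE 0.12, adjusted p = 0.649, limma), with a 95% interval of -0.41 to 0.07. Mmp2 had -0.11 (SE 0.16, adjusted p = 0.841), with an interval of -0.44 to 0.21. For both genes the interval included 0. Adamts1 had -0.22 (SE 0.18, adjusted p = 0.715), which became -0.03 without ROI 26. Mmp13, at background, had -0.25 (SE 0.17, adjusted p = 0.649).

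The other 3 proteases had wide intervals. Mmp9 had 0.12 (SE 0.24, adjusted p = 0.898, limma), and -0.10 without ROI 28, 0.50 by edgeR and -0.13 by DESeq2, so that neither size nor sign was stable. Mmp11 had 0.06 (SE 0.26, adjusted p = 0.955), with an interval from -0.46 to 0.58. Mmp3 had 0.19 (SE 0.21, adjusted p = 0.784), with an interval from -0.23 to 0.61, and 0.43 by DESeq2 beside the edgeR value above. The 3 inhibitors were all on the positive side. Timp3 had 0.26 (SE 0.21, adjusted p = 0.693), Timp2 had 0.12 (SE 0.15, adjusted p = 0.809) and Timp1 had 0.07 (SE 0.15, adjusted p = 0.895), the last turning to -0.0060 with a pseudocount of 5. Without ROI 14, Timp2 had 0.06 and Timp1 0.04, and without ROI 28 Timp2 had 0.08. With array weights Timp3 had 0.11. These p-values over ROIs that share animals are too small.

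The deposited values, without subtraction of the ROI median, were lower in the knockdown ROIs for most targets, these genes included. There, 6 of the 10 were lower in the knockdown ROIs (Mmp2, Mmp13, Mmp14, Adamts1, Timp1 and Timp2) and 0 higher, beside 94% of all targets lower and 0.0689% higher. Their median log2 fold change was -0.53, and that of all targets -0.66. Mmp14, as deposited, had a log2 fold change of -0.77 (SE 0.10, adjusted p = 3.39e-08, limma), close to the shift of all targets. Control ROIs had an upper quartile (75th percentile) of 70.3 to 72.6 as deposited, against 43.9 to 56.4 for the knockdown, so the scale of the groups differed. The 56.4 was ROI 26, and the next highest knockdown ROI was at 45.7. In recovered reads the upper quartile varied far more, from 32 to 155 in control and from 4 to 132 in knockdown ROIs. Apart from ROI 26, the deposited values of each group were thus close to a common upper quartile, which differed between the groups. With every ROI set to the same upper quartile, the median log2 fold change of all targets was -0.03 in place of -0.66. How much of the deposited shift came from scaling and how much from the tissue was not tested, and p-values are again too small.

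**Figure D3:**
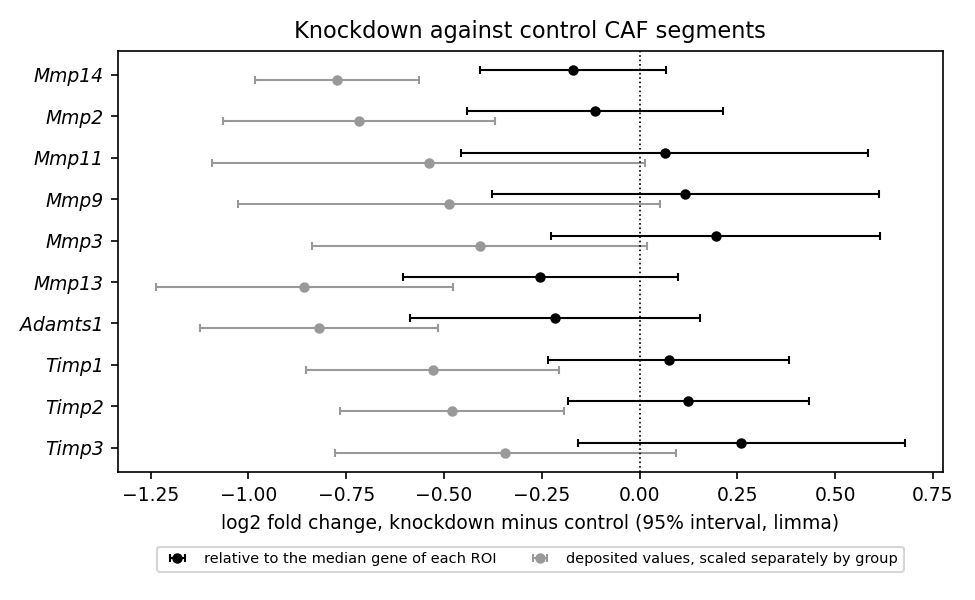
Log2 fold change of each gene, knockdown minus control (x axis), with 95% intervals from limma over 27 ROIs, relative to the median gene of each ROI (black) and as deposited (grey). All 10 black intervals cross 0, while 6 grey intervals lie wholly below it in genes that passed the test.

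Ratios of a protease to an inhibitor within an ROI depend on how the ROI was scaled only through the added pseudocount, which matters for low genes. Of 21 such log2 ratios, 18 were lower in the knockdown ROIs, and 16 with a pseudocount of 5. Each difference is the log2 fold change of the protease minus that of the inhibitor. The inhibitors had positive values (Timp1 0.07, Timp2 0.12, Timp3 0.26), as did only 37.3% of all targets and 27.7% of those above background. Most targets would therefore also have lower ratios to these inhibitors. The count restates fold changes that did not pass the test, and by itself shows no shift toward inhibition. The differences of the group means ranged from -0.51 to 0.12, and the 21 ratios share 10 genes, so they are not independent. The difference was above 2 standard errors for 1 of the 21, Mmp14 to Timp2. That log2 ratio averaged 1.42 ± 0.42 over the control ROIs (SD, n = 14) and 1.12 ± 0.32 over those of the knockdown (SD, n = 13), a difference of -0.30 with a standard error of 0.14. It was not tested, and the ROIs ranged from 0.71 to 2.19 in control and from 0.51 to 1.73 in knockdown, so the groups overlapped. Mmp13 to Timp3 had the most negative difference, -0.51 (standard error 0.26), but Mmp13 is at background.

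Across ROIs of 1 group, proteases and inhibitors were compared as a description, with no test, since some ROIs share an animal. In control ROIs (n = 14), Mmp14, Mmp2 and Timp2 had positive r with each other. Pearson's r was 0.71 for Mmp2 with Timp2 (Spearman's rho 0.61), and 0.72 after the 2 ROIs farthest from the median of Timp2 were left out. It was 0.66 for Mmp14 with Timp2 (rho 0.62), and 0.73 after the same step. It was 0.61 for Mmp2 with Mmp14 (rho 0.62). The 3 genes encode the proteins of the activation complex described above. In the same ROIs Mmp14, Mmp2 and Timp2 had r of 0.80, 0.67 and 0.78 with summed endothelial markers. With summed fibroblast and stellate cell markers they had r of 0.54, 0.90 and 0.64. The part of these cells in the 3 pairs was not tested. For comparison, Timp2 had a median r of 0.28 with the other targets above background in control ROIs, and 25.6% of them reached 0.5. That share was 14.1% for Mmp14 and 7.91% for Mmp2.

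In knockdown ROIs (n = 13) Mmp14 with Timp2 had r = 0.52 (rho 0.27), and 0.18 without ROI 28. Mmp2 with Timp2 had r = 0.36 (rho 0.46). Mmp2 with Mmp14 had r = -0.06 (rho -0.20). How far the first pairs stood from the controls depended on the centring. With ROIs centred on targets above background instead of on all, Mmp14 with Timp2 had r = 0.52 in control and 0.52 in knockdown ROIs. Mmp2 with Timp2 then had r = 0.69 in control and 0.61 in knockdown ROIs. Over the other targets above background, Timp2 had a median r of 0.05 in knockdown ROIs, with 4.61% at or above 0.5, and the share was 0.987% for Mmp2 and 11.8% for Mmp14. Without the shallow ROI 26, the median r of Timp2 was 0.16, with 11.2% at or above 0.5. The share was then 1.59% for Mmp2 and 15.6% for Mmp14. These differences between groups were not tested.

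Among the inhibitors, Timp1 had a positive r with Timp3, weak in knockdown ROIs, and a negative r with Timp2. Timp1 and Timp3 had r = 0.75 in control ROIs (rho 0.82, and 0.82 for r without the 2 farthest ROIs) and r = 0.27 in knockdown ROIs (rho 0.10). Timp1 with Timp2 had r = -0.31 in control (rho -0.48) and -0.63 in knockdown ROIs (rho -0.60). Timp2 with Timp3 had r = -0.46 and -0.31. The sign of each of the 3 pairs was the same in both groups. With 1 knockdown ROI left out, Timp1 with Timp3 ranged from 0.05 (without ROI 18) to 0.40. Timp1 with Timp2 then ranged from -0.73 to -0.39 (without ROI 19).

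Some other pairs changed with single ROIs. Mmp9 with Timp2 had r = 0.77 in knockdown ROIs (rho 0.53), 0.63 without ROI 28 and 0.38 without the 2 ROIs farthest from the median of Timp2. In control ROIs the same pair had r = -0.05, and 0.39 without ROI 14. Adamts1 with Timp3 had r = 0.31 in knockdown ROIs, and 0.73 without ROI 26. Mmp13 with Timp1 had r = 0.66 in knockdown ROIs (rho 0.62), and at least 0.52 with any 1 ROI left out, with Mmp13 at background. Over the 21 protease-inhibitor pairs the median r was 0.12 in control and -0.0036 in knockdown ROIs, with 3 pairs at or above 0.5 and 0 at or below -0.5 in each group.

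**Figure D4:**
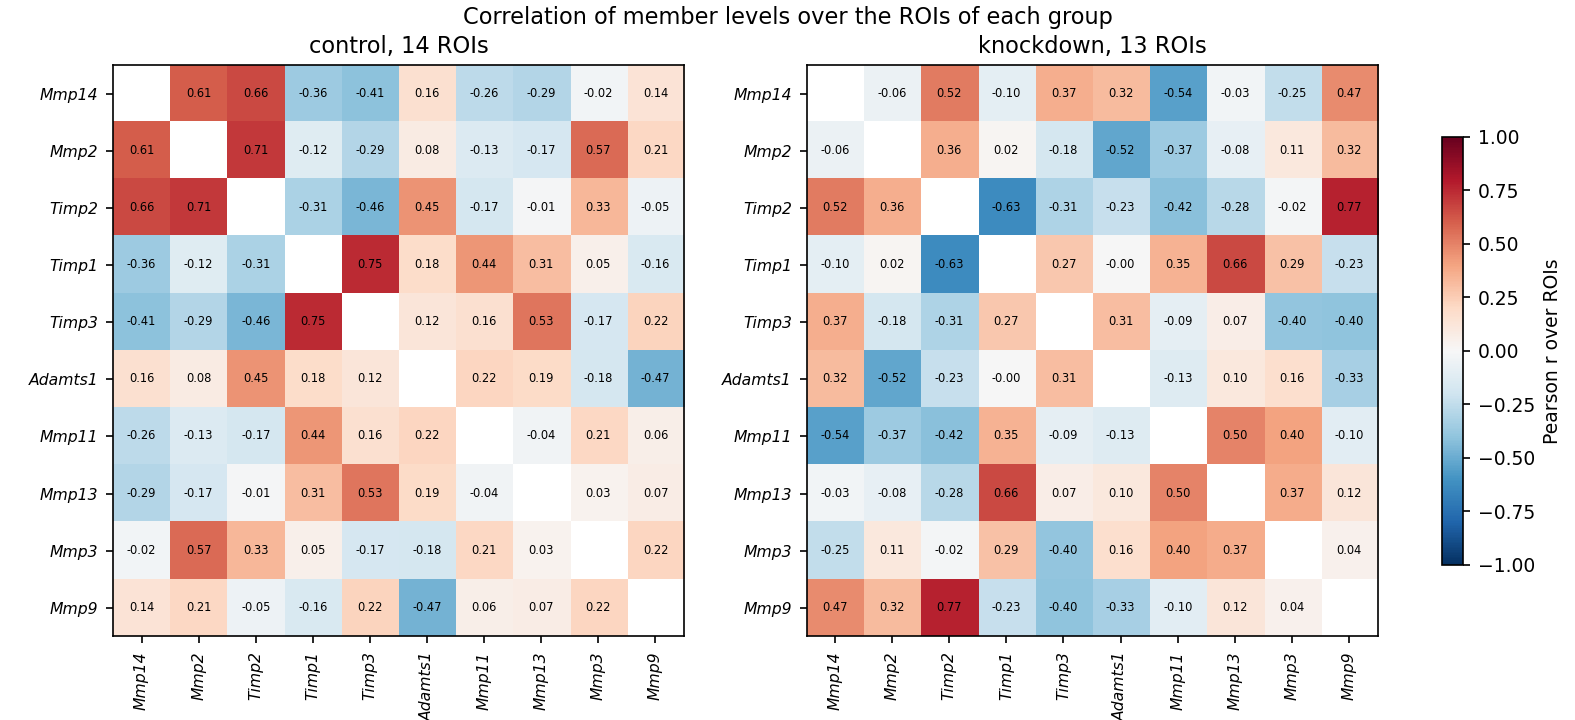
Pearson r between levels of the 10 genes over 14 control ROIs (left) and 13 CMTM6-knockdown ROIs (right), red for positive and blue for negative values. The block of Mmp14, Mmp2 and Timp2 is red throughout in control (0.61 to 0.71), and Timp1 with Timp2 is blue in both panels (-0.31 and -0.63).

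**Figure D5:**
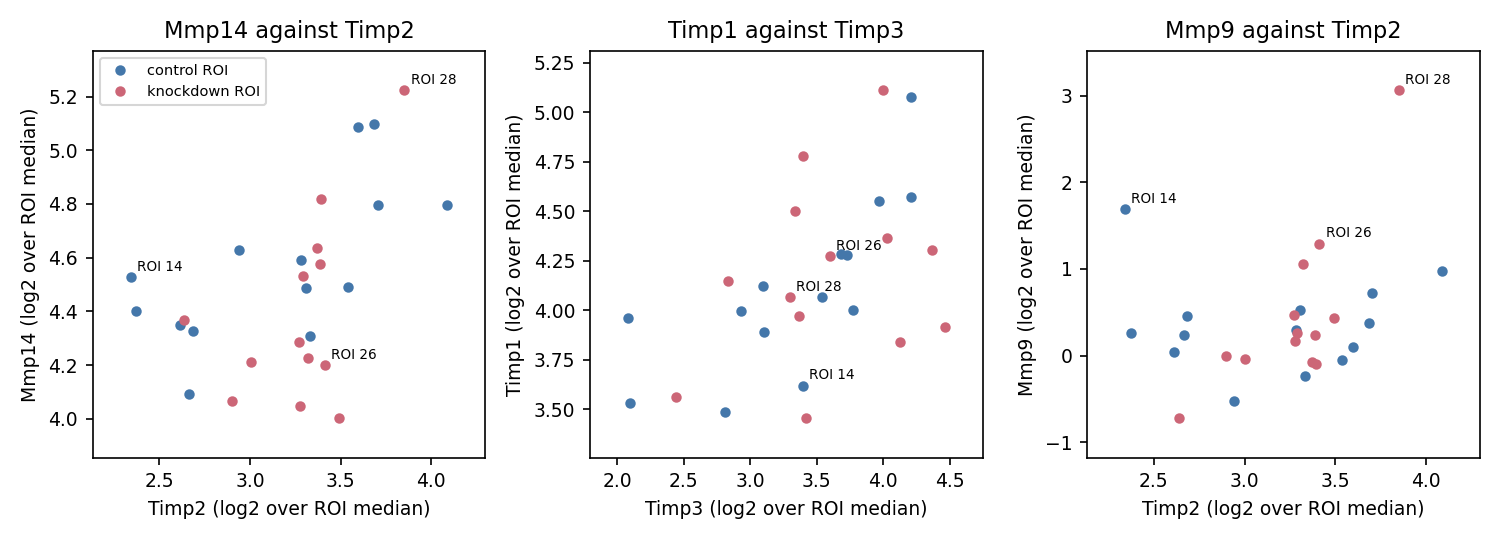
Levels of Mmp14 against Timp2, Timp1 against Timp3 and Mmp9 against Timp2 (log2 over ROI median), with control ROIs in blue and CMTM6-knockdown ROIs in red, and ROIs 14, 26 and 28 labelled. ROI 28 is the top right point for Mmp14 and Mmp9 among knockdown ROIs, and r of Mmp9 with Timp2 falls from 0.77 to 0.63 without it.

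Summed cell type markers moved with some of the genes, and the pairs named here are a selection. Mmp2 had r = 0.90 with the fibroblast and stellate cell markers in control ROIs and 0.02 in knockdown ROIs. Mmp14 had r = 0.80 with endothelial markers in control and 0.60 in knockdown ROIs, and Timp2 0.78 and -0.08. With the same markers Mmp2 had 0.67 in control and -0.28 in knockdown ROIs, and Timp1 -0.68 and -0.10. Adamts1 had 0.14 and 0.69 (rho 0.90 in knockdown, and r = 0.82 without ROI 26). Of 7 endothelial markers, 3 were above background. Mmp14 had r = -0.18 with T and B cell markers in control and -0.63 in knockdown ROIs (rho -0.79), and 2 of these 6 markers were above background. Timp1 had r = 0.79 with neutrophil markers in control ROIs and -0.11 in knockdown ROIs, and of these markers 2 of 8 were above background. Mmp11 had r = 0.71 with hepatocyte markers in control and -0.66 in knockdown ROIs. Mmp9 had r = 0.68 with macrophage markers in knockdown ROIs, but rho was 0.25 and r fell to 0.17 without the 2 farthest ROIs. In control ROIs Mmp9 had r = 0.10 with macrophage markers (rho 0.44). With neutrophil markers Mmp9 had r = -0.02 in control and -0.26 in knockdown ROIs. The part of these cells in the member values was not tested.

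The targets whose levels were most like those of each gene were found over all 27 ROIs after group means were taken off, among 10031 targets above background. Mmp14 was closest to Col4a1, a basement membrane collagen (r = 0.83, rho 0.83), then Rhob and Sh3bgrl3. Mmp2 was closest to Cyp1b1, Lgi2 and Cxcl12, a chemokine of stromal cells (r = 0.79, 0.78 and 0.77). Within groups these r were 0.92, 0.94 and 0.91 in control but 0.39, 0.42 and 0.36 in knockdown ROIs. Timp2 was closest to Tmem176b, Ehd2 and Pea15a (r = 0.84, 0.83 and 0.82). These 3 genes of the activation complex thus had no shared nearest target. Timp1 was closest to Hbegf, a growth factor of the EGF family (r = 0.80), to Tnc, the matrix protein tenascin C (r = 0.77), and to Pla1a. Timp3 was closest to Dio3, Ecm1 and Sulf1 (r = 0.76, 0.70 and 0.67). Mmp9 was closest to Acp5, an acid phosphatase of osteoclasts and macrophages (r = 0.76, rho 0.60), Slc37a2 and Adap2, and r with Acp5 was 0.46 in control and 0.88 in knockdown ROIs. Mmp11 was closest to Niban1, C1qtnf3 and Dppa4 (r = 0.74, 0.71 and 0.70), of which C1qtnf3 had 0.32 in control and 0.83 in knockdown ROIs, and Mmp3 to Gramd1b, Hp and Frzb (r = 0.71, 0.70 and 0.70). For Adamts1 the nearest, Ptbp3, had r = 0.91 but 0.69 without ROI 26. Each r was picked as the highest of 10031 and is a description only.

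Of 64 further genes of the system, 62 were measured and 35 were above background. They were 16 other MMPs, 18 other ADAMTS genes, 20 inhibitors, activators and partners, and 8 ADAM sheddases. None passed the limma test in either direction, beside 5 higher and 4 lower before adjustment (p under 0.05). Of all targets, 3.16% were higher and 6.73% lower by that measure. The median log2 fold change of the 62 was -0.04. Ctsl, the lysosomal protease cathepsin L, had the smallest p among those above background, with a log2 fold change of -0.35 (SE 0.11, adjusted p = 0.249, limma). It ranged from 4.41 through 4.77 to 5.32 in control and from 3.98 through 4.51 to 5.10 in knockdown ROIs, so the groups overlapped. Bsg, the membrane protein basigin that is known to induce metalloproteinases, had -0.23 (SE 0.10, adjusted p = 0.422). Plau, the plasminogen activator urokinase, had -0.32 (SE 0.18, adjusted p = 0.566).

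Of these 62 genes, edgeR called 2 higher, beside the 0.594% of all targets given above, and DESeq2 called 1, beside 0.767%. Both genes, Plg and Lcn2, are among the targets not above background. Plg, the plasma zymogen plasminogen made by hepatocytes, was higher by edgeR (log2 fold change 0.70, adjusted p = 0.029) and by DESeq2 (0.68, adjusted p = 0.031), beside 0.63 (adjusted p = 0.155) by limma. Plg and Lcn2 are named after their values were seen. Lcn2, lipocalin 2, which binds MMP9 in humans, was higher by edgeR (1.27, adjusted p = 0.021) and not by DESeq2 (0.99, adjusted p = 0.208) or limma (0.59, adjusted p = 0.464). As given above, 3 of 9 hepatocyte markers passed the limma test as higher in the knockdown ROIs, and their part in the Plg and Lcn2 values was not tested. All of these p-values over ROIs are too small.

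Among the other MMPs above background, Mmp16, a membrane-type enzyme, had a log2 fold change of 0.08, Mmp19 -0.05 and Mmp23 0.05 (all with adjusted p from 0.874 to 0.932, limma). Among the ADAMTS genes, Adamts15 had 0.40 (SE 0.19, adjusted p = 0.491), Adamts12 -0.28 (SE 0.15, adjusted p = 0.533) and Adamts4, an aggrecanase, -0.22 (SE 0.13, adjusted p = 0.605). Among the ADAM sheddases, Adam19 had -0.21, Adam9 -0.10 and Adam10 0.07, with 1 of the 8 at a log2 fold change above 0, beside 37.3% of all targets and 27.7% of those above background. None of these 9 differences was past the threshold of the adjusted test.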

How the data were processed

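Tags released from desmin-stained segments after hybridization of the whole transcriptome probes were sequenced, and the study used the GeoMx DSP Analysis Suite. For its version, normalization and target filter, nothing was stated in the sources used here. The deposited values are signal, scaled by the authors, for 18855 targets in 27 ROIs. In each ROI about 99.98% of values were whole multiples of 1 step (tolerance 0.001 reads), from which reads were recovered.

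log2(value + 1) minus the ROI median was fitted with limma 3.58.1 (trend, two-sided) on all targets, with Benjamini-Hochberg adjustment. A fold change on this scale understates the change of low targets. Groups came from the labels, and the replicates are ROIs, of which some share an animal. Alternatives were pseudocounts of 0.1 and 5, other scalings, a background filter, array weights, a two-sample test as the study names it, ROIs 14 and 26 left out, and on those recovered reads, DESeq2 1.42.0 and the quasi-likelihood test of edgeR 4.0.16 with TMM scaling. Leaving out ROI 28 or each other ROI in turn, and the letters GGGCGG and TATAAA, were added after the data were seen. The 10 genes, the further protease lists and the markers were chosen with earlier results of these data known. Named from the further lists were called targets, or else the 3 with the smallest p above background. The counting SD is the root mean square Poisson error of the reads, and PCR copies are not covered by it. R 4.3.3 and Python 3.11.15 were used.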

Additional observations from a re-analysis of the deposited data

How the results depend on the processing

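Under 12 alternatives other than the deposited scale, no member was called, with adjusted p from 0.270 to 0.999 and log2 fold changes from -0.29 to 0.50. On the deposited values 6 members were called lower, and 58 of the 62 further genes, beside 94% of all targets. Mmp2 at -0.72, Mmp13 at -0.86, Mmp14 at -0.77 and Adamts1 at -0.82 passed with their sign kept. There the sign turned for Mmp3 (-0.41), Mmp9 (-0.49), Mmp11 (-0.54), Timp1 (-0.53), Timp2 (-0.48) and Timp3 (-0.34). The sign also turned for Mmp9 with DESeq2 (-0.13) and without ROI 28 (-0.10), for Mmp11 with array weights (-0.011) and for Timp1 with a pseudocount of 5 (-0.0060). Other values moved without a call: Mmp3 reached 0.50 with edgeR and 0.43 with DESeq2, Mmp9 0.50 with edgeR, and Timp3 0.11 with array weights. Mmp14 had -0.25 with a pseudocount of 5 (limma, unadjusted p = 0.033, adjusted p = 0.270). It had -0.24 without ROI 28 (limma, unadjusted p = 0.034, adjusted p = 0.494). At an unadjusted p under 0.05, these 2 fits had 2103 and 1231 of all 18855 targets lower. With edgeR and with DESeq2 Mmp14 had -0.09. The cause of these moves was not tested. Among the further genes array weights called 1 higher (Plg) and 1 lower (Adamts16), both of them not above background. Over all 18855 targets array weights called 87 higher and 51 lower. By edgeR 2 of the further genes were called higher and by DESeq2 1, beside the shares of all targets given above. Of 21 protease-to-inhibitor ratios, 16 to 18 were lower in knockdown ROIs over the alternatives, a count that restates the member fold changes. The number of members above background was 9 at the 90th and 7 at the 99th percentile. Of 273 recomputed correlations of a protease with an inhibitor, 13 moved by more than their sampling error, mostly for Timp2 and Adamts1. No paired analysis was possible because control and knockdown metastases came from different mice. Low signal limits Mmp3 and Mmp13, and the unknown mice limit every test.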
